A study of Mus musculus with 577 samples.

Results

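Gap junctions and transzonal projections join the oocyte to the granulosa cells (GCs) of its follicle, and 8 genes of this contact were followed through oocytes, GCs and mouse embryonic stem cells (mESCs). They were 3 connexins (Gja4, Gja1 and Gjc1), 3 genes of the actin projections (Myo10, Fscn1 and Daam1) and 2 cadherins (Cdh1 and Cdh2). They were taken by symbol and made up 8 of the 22060 protein-coding genes counted. All 8 were found in each of the 8 tables of gene counts, which held 562 of the 577 libraries of the study. The other libraries gave counts per exon and per junction.

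The study developed DRaqL, a lysis of laser-captured cells in sodium deoxycholate that is then quenched with Triton X-100, and measured mouse ovarian cells with it. The ovaries came from 8-week-old females, were frozen, sectioned at 15 μm and fixed in alcohol, and single cells were cut out by laser capture microdissection (LCM). Animals were not named in the labels, and the strain was not given in the sources used here. Amplified cDNA was read at its 3′ end, so that a count reports the end of a transcript.

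DRaqL-SC3-seq, the main protocol, gave 14 oocytes of primary follicles and 30 of secondary to early antral follicles. It also gave 31 GCs that touched an oocyte (neighboring), 26 that did not (non-neighboring), 45 freshly dissociated mESCs and 36 mESCs cut from a frozen cell block. The mESCs were grown with 2 kinase inhibitors and LIF. SMART-Seq v4 gave 18 oocytes and 34 GCs without DRaqL, and 15 oocytes and 39 GCs with it. LCM-seq gave 37 GCs and DRaqL-Smart-seq2 gave 34. Sections kept in formalin for 24 h and treated with protease gave 12 oocytes and 24 GCs. From 1 mouse in proestrus, 1 ovary gave 8 oocytes and 70 GCs by LCM with DRaqL-Smart-seq2. The other ovary gave 14 grown oocytes and 35 GCs, dissociated from cumulus–oocyte complexes in medium with a cAMP analog. They were amplified with Smart-seq2, and neighboring GCs were those attached to the oocyte. DRaqL-SC3-seq was also run on 7 pools of 10 neighboring GCs, 7 pools of 10 non-neighboring GCs, 7 samples of bulk GCs, and 2 serial sections each of 8 oocytes.

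Gap junctions are clusters of channels, each built from connexin proteins of both cells, that pass small molecules between the cytoplasm of neighbouring cells. In the mouse follicle, Gja4 (connexin Cx37) is known as the connexin of the oocyte side and Gja1 (Cx43) as the main connexin between GCs, while Gjc1 encodes Cx45. Transzonal projections are thin actin-filled extensions of the GCs that cross the zona pellucida to the oocyte surface. Myo10, an unconventional myosin that moves to filopodial tips, Fscn1 (fascin), which bundles actin, and Daam1, a formin that elongates actin filaments, serve such extensions. The cadherins Cdh1 (E-cadherin) and Cdh2 (N-cadherin) hold cells together at adherens junctions.

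Promoters are shown for the genes with the largest differences between oocytes and GCs that have an entry in the RefSeq table of GRCm38.p6, namely Gja4 and Daam1, which were higher in oocytes, and Gja1 and Fscn1, which were higher in GCs. Each window runs from 250 bases before to 50 bases after the annotated start, 5′ to 3′ on the strand of the gene, and capitals mark matches to any of 5 motifs searched on both strands. The windows lie at chr4:127313990-127314289 on the minus strand (Gja4), chr12:71830818-71831117 on the plus strand (Daam1), chr10:56377050-56377349 on the plus strand (Gja1) and chr5:142960105-142960404 on the plus strand (Fscn1).
Gja4: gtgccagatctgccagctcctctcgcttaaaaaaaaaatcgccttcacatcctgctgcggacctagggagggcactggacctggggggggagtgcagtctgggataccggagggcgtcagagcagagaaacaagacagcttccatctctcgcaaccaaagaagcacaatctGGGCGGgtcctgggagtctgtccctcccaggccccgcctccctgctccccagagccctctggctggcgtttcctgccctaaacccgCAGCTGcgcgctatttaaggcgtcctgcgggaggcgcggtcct
Daam1: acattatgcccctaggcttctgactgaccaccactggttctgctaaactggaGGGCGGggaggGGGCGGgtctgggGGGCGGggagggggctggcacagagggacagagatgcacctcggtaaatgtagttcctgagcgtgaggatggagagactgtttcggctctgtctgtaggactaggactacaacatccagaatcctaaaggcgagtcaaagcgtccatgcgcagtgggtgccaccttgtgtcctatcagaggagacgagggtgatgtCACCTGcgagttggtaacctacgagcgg
Gja1: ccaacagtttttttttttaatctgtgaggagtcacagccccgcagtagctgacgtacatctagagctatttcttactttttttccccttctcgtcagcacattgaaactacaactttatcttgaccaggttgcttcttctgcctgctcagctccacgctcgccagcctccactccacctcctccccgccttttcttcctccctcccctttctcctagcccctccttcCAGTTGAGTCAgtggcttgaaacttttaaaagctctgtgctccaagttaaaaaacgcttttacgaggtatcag
Fscn1: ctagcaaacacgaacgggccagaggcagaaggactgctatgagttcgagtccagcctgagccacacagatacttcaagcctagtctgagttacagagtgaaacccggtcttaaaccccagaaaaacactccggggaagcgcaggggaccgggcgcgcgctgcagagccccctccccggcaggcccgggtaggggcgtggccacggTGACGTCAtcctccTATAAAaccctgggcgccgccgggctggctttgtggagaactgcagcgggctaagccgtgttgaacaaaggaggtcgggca

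Counting bases from 1 at the left end of a window, the Gja4 window held a GC box (GGGCGG) at base 172 and an E-box (CANNTG) at base 258. The Daam1 window shown held GC boxes at bases 53, 64 and 77 and an E-box at base 273. The Gja1 window held an E-box at base 228 that shares letters with an AP-1 element (TGACTCA) at base 232. The Fscn1 window held a cAMP response element (TGACGTCA) at base 206 and a TATA box (TATAAA) at base 220. Of 32544 mouse promoter windows of this length, 72.3% held an E-box, 35.9% a GC box, 13.6% a TATA box, 5.19% an AP-1 element and 1.80% a cAMP response element. The matches are descriptions of the letters only. Myo10 also had windows in the table, with 5 GC boxes in the first and a TATA box in the second, Daam1 had another window with an E-box at base 31, and Gjc1, Cdh1 and Cdh2 had none.

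Among the 7 genes positioned here by GENCODE vM21 on GRCm38, Gja4 is the shortest, at chr4:127311421-127314039. Gja1 lies at chr10:56377330-56402513, Gjc1 at chr11:102799579-102819700 on the minus strand, as Gja4 does, and Cdh1 at chr8:106603351-106670246. Fscn1 lies at chr5:142960343-142973185. The longest of the 7 are Daam1, at chr12:71831078-71992333, and Myo10, at chr15:25622525-25813673.

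Levels are given as RPM, which scales the reads of each library to the same total over protein-coding genes, or as log2 (RPM+1) with the SD over cells. Library totals ranged from 873206 to 2338750 reads in DRaqL-SC3-seq oocytes, from 162033 to 1429292 in GCs, from 204699 to 3440997 in mESCs and from 3811945 to 8259281 in pools. A group of single cells from unnamed animals counted as 1 sample, so its SD is a spread over cells and no test was made between such groups. The labels were checked with markers. The summed level of 10 GC genes had medians of 8017 and 8118 RPM in neighboring and non-neighboring GCs and of 908 RPM in oocytes of secondary to early antral follicles. The summed level of 14 oocyte genes had medians of 36921 and 9447 RPM in oocytes of secondary to early antral and of primary follicles. It was 2943 RPM in neighboring and 64.2 RPM in non-neighboring GCs. Some GC libraries stood apart by this measure. In DRaqL-SC3-seq, 10 neighboring and 2 non-neighboring GCs held at least the 3720 RPM of the lowest oocyte, and 5 GCs by SMART-Seq v4, 2 by DRaqL-SMART-Seq v4, 5 after formalin and 4 of the proestrus mouse by LCM stood at or above the lowest oocyte of their own table. These limits are unlike. In the proestrus mouse, without primary follicles, the lowest oocyte held 14665 RPM by LCM and 29895 RPM after dissociation. The dissociated GCs reached at most 19611 RPM, so none of them was left out. Another 3 GCs by DRaqL-SC3-seq lie in a table of their own, and 1 of them was at the level of an oocyte. The paper excluded 3 GCs of this protocol because their profiles were mixed with those of oocytes. It also reported mixed profiles among the dissociated GCs, more often in those attached to oocytes, and proposes that they are genuine. The members' differences by position are therefore given with all libraries and, where the direction turned or 2-fold was crossed, also without GCs at the level of an oocyte. Related genes are given with all libraries, and LCM-seq and DRaqL-Smart-seq2 had no oocyte in their table to set such a level.

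Gja4 was the connexin of the oocytes. Its level was between 774 and 1843 RPM, with a median of 1114 RPM, in the 30 oocytes of secondary to early antral follicles. It was between 143 and 647 RPM, with a median of 264 RPM, in the 14 oocytes of primary follicles. Both groups lay above the GCs in mean log2 (RPM+1) by more than the larger SD, with 10.14 ± 0.34 (SD, n = 30) and 8.14 ± 0.66 (SD, n = 14) against 2.63 ± 3.31 (SD, n = 31) in neighboring and 1.35 ± 2.00 (SD, n = 26) in non-neighboring GCs. Gja4 reads were found in 17 of 31 neighboring GCs (95% Clopper-Pearson interval 36.03% to 72.7%) and in 12 of 26 non-neighboring GCs (26.6% to 66.6%). They were also found in 12 of 45 freshly dissociated (14.6% to 41.9%) and in 12 of 36 laser-captured mESCs (18.6% to 50.97%), a cell type with no known contact with oocytes. The intervals overlap in all 4 groups, treat cells as independent draws and leave out the spread between animals. Depth was unlike, with median totals of 573406 reads in GCs and of 2068210 and 1951460 in fresh and laser-captured mESCs. A deeper library can show a read more easily, so these shares are not compared at equal depth. Over all neighboring GCs together, Gja4 stood at 82.02 RPM (95% Poisson interval 78.01 to 86.2), and over non-neighboring GCs at 15.9 RPM (13.9 to 18.1). The Poisson intervals treat reads as independent, although amplified reads carried no molecular identifiers. They leave out the spread over cells and so do not measure a difference by position. The highest GC held 512 RPM, below each of the 30 oocytes of secondary to early antral follicles.

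Gja1 had the opposite pattern. Every GC had Gja1 reads, with 60.4 to 1831 RPM and a median of 404 RPM in neighboring cells and 186 to 1731 RPM and a median of 492.7 RPM in non-neighboring cells. In oocytes, the highest level was 56.7 RPM, so that all 44 oocytes lay below all 57 GCs. The mean log2 (RPM+1) was 9.08 ± 0.78 (SD, n = 26) in non-neighboring and 8.77 ± 1.12 (SD, n = 31) in neighboring GCs, and the GCs stood above the next group, the fresh mESCs at 3.08 ± 1.84 (SD, n = 45), by more than the larger SD. Laser-captured mESCs, with 1.96, and oocytes of secondary to early antral and primary follicles, with 1.78 and 1.71, could not be ordered beyond their SD. Gja1 reads were present in 24 of 30 and 8 of 14 oocytes of these stages. In no GC was Gja4 found without Gja1, and in no oocyte was Gja1 found without Gja4.

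Gjc1 was low in the ovary and belonged to the mESCs, where its mean log2 (RPM+1) was 6.26 ± 1.50 (SD, n = 45) in fresh and 6.21 ± 1.91 (SD, n = 36) in laser-captured cells. Oocytes held 1.89 ± 1.40 (SD, n = 30) and 1.84 ± 1.58 (SD, n = 14), with a highest level of 20.5 RPM. A Gjc1 read was found in 1 of 31 neighboring (95% Clopper-Pearson interval 0.0816% to 16.7%) and 5 of 26 non-neighboring GCs (6.55% to 39.4%). All of these GCs held under 5 RPM.

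Myo10 was present in every oocyte, GC and mESC of this protocol, and no neighbouring pair of groups in the order of its levels differed beyond the SD. The means of log2 (RPM+1) ran from 7.51 ± 1.81 (SD, n = 26) in non-neighboring GCs, through 7.32 ± 0.53 (SD, n = 30) and 7.20 ± 0.78 (SD, n = 14) in oocytes and 7.002 ± 1.98 (SD, n = 31) in neighboring GCs, to 6.18 and 5.39 in mESCs. The cells of a type varied to unlike degrees. Oocytes held 41.6 to 346 RPM of Myo10, while GCs held 4.33 to 1390 RPM.

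Fscn1 was high in most GCs and mESCs and lower in oocytes. Neighboring GCs had a median of 114.04 RPM, a highest level of 756 RPM and 2 cells without a read, and non-neighboring GCs a median of 100.1 RPM, a highest level of 937 RPM and 2 cells without a read. Oocytes of secondary to early antral follicles had a median of 9.79 RPM and a highest level of 111.02 RPM, and those of primary follicles a median of 2.52 RPM. The groups overlapped, and no step in the order of its group means exceeded the larger SD.

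Daam1 was a gene of the oocytes. All 44 held it, at 33.5 to 147 RPM with a median of 57.2 RPM in primary and at 51.4 to 212 RPM with a median of 82.4 RPM in secondary to early antral follicles. In GCs the median was 0 RPM in either position, and 10 of 31 neighboring and 12 of 26 non-neighboring cells had a read. A few GCs held much more, up to 209 RPM among neighboring and 1352 RPM among non-neighboring cells, so no oocyte lay above all GCs. The means of log2 (RPM+1) were 6.45 ± 0.40 (SD, n = 30) and 6.16 ± 0.77 (SD, n = 14) in oocytes against 1.79 ± 2.78 (SD, n = 26) in non-neighboring GCs, a step larger than the SD.

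The cadherins were ordered differently across the cell types. Cdh1 was highest in mESCs, at 8.05 ± 0.58 (SD, n = 45) and 7.87 ± 0.78 (SD, n = 36) on the log2 (RPM+1) scale. It was next in oocytes of secondary to early antral follicles, at 6.75 ± 0.88 (SD, n = 30), and then in those of primary follicles, at 3.63 ± 1.87 (SD, n = 14), with steps larger than the SD between these. GCs held 1.97 ± 1.95 (SD, n = 31) and 1.91 ± 1.76 (SD, n = 26), a step below the primary follicles within the SD. Cdh2 was at 4.25 ± 2.95 (SD, n = 26) in non-neighboring GCs, 3.61 ± 1.46 (SD, n = 30) and 3.09 ± 1.66 (SD, n = 14) in oocytes and 3.37 ± 2.82 (SD, n = 31) in neighboring GCs, with no step beyond the SD among these. The mESCs, at 0.76 and 0.53, lay below the lowest of these groups, the oocytes of primary follicles, by more than the SD. Reads of both cadherins were found in 30 of 30 oocytes of secondary to early antral follicles and in 13 of 14 of primary follicles. In GCs, both were found in 17 of 31 neighboring and 12 of 26 non-neighboring cells.

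**Figure D1:**
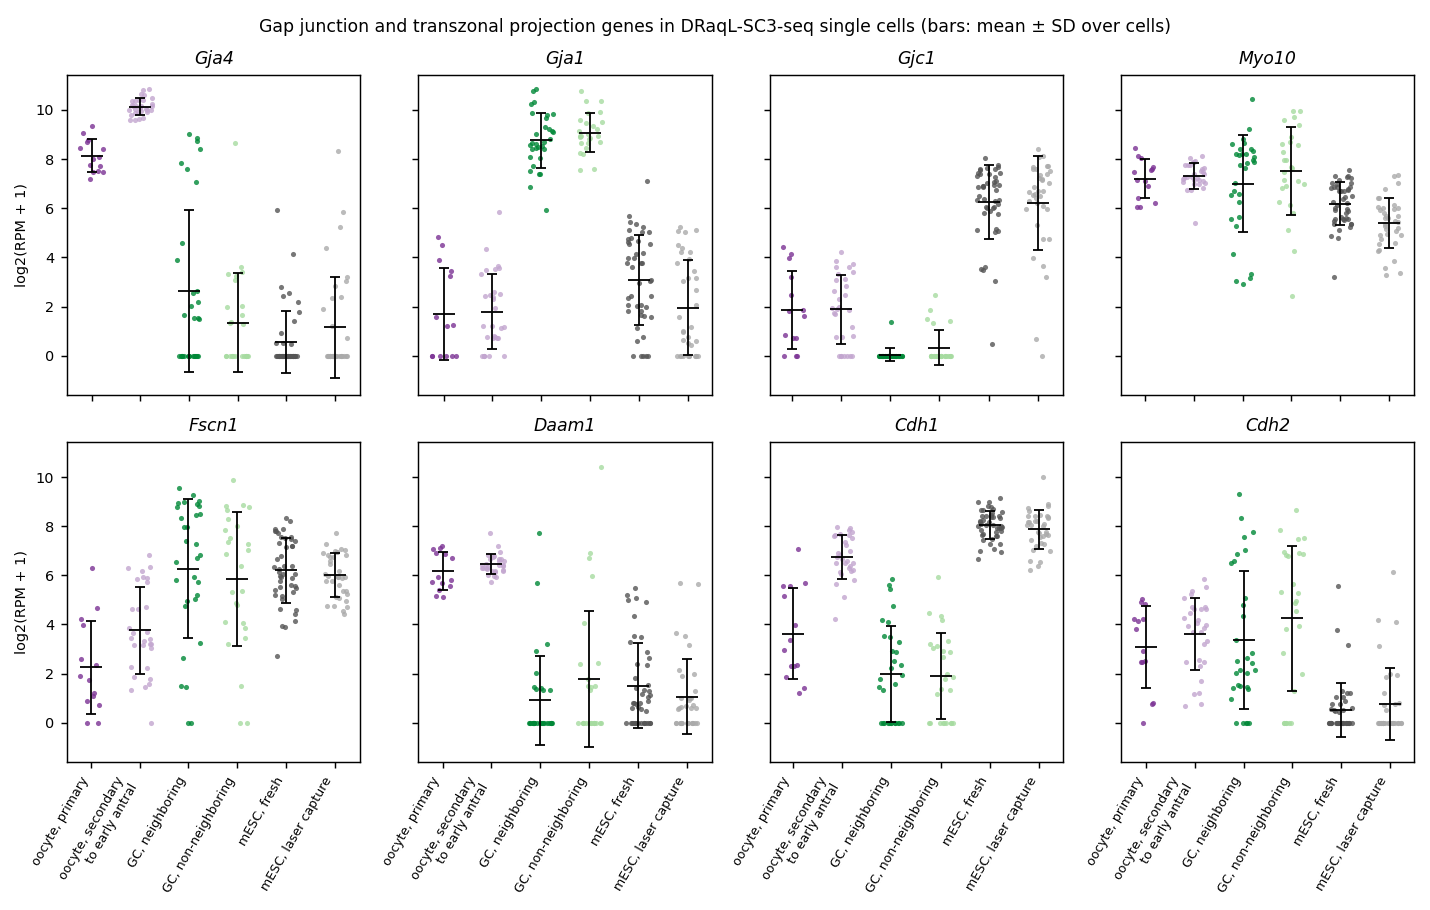
Level of each of the 8 genes on the y axis, as log2 (RPM+1), in each DRaqL-SC3-seq cell (points) of the 6 groups on the x axis, with bars for the mean ± SD over cells. Gja4 and Daam1 stand highest in the oocytes, Gja1 in the GCs, and Gjc1 and Cdh1 in the mESCs.

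The comparison of oocytes with GCs asks which side of the contact holds the mRNA of each gene. On the log2 (RPM+1) scale, Gja4 was higher in oocytes by 7.46, Daam1 by 5.04, Cdh1 by 3.81 and Gjc1 by 1.70, as differences of means over 44 oocytes and 57 GCs. Gja1 was lower in oocytes, with a difference of -7.15, and so was Fscn1, with -2.80. Myo10 and Cdh2 differed by 0.05 and -0.32. Thus 4 of the 8 genes were at least 2-fold higher in oocytes and 2 at least 2-fold lower, while 71.4% of the 13157 genes compared were higher by this measure and 5.14% were lower. Most genes stood higher in oocytes on this scale, with a median difference of 1.89 over all genes and of 0.88 over the 8. Daam1 depended on how the cells were averaged, since the log2 ratio of the mean RPM was 1.34, with the 1352 RPM of the highest GC in the mean. The same ratio was 4.17 for Gja4. TMM scaling moved the median difference of all genes by -0.16 and no gene of the 8 across 2-fold.

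The other protocols placed the genes on the same sides, with exceptions for the low ones. The difference for Gja4 ran from 5.54 after formalin to 7.94 in the laser-captured cells of the proestrus mouse, and that for Gja1 from -8.37 in its dissociated cells to -4.56 by SMART-Seq v4. Daam1 was higher in oocytes by 3.55 to 5.04 and Cdh1 by 2.17 to 4.98 in all 6 data sets. Fscn1 was lower in oocytes in all 6, with a difference of -0.63 by SMART-Seq v4 and of -2.58 to -3.66 in the others. Myo10 stayed within 0.36 in either direction in every data set. Gjc1 was higher in oocytes by 1.37 to 1.98 in 5 data sets and differed by -0.35 in the dissociated cells. Cdh2 differed by less than 1 in 4 data sets but by -2.49 after formalin and -2.01 in the laser-captured cells of the proestrus mouse. For Gja1, 12 of 12 oocytes after formalin, 15 of 15 by DRaqL-SMART-Seq v4, 12 of 14 dissociated and 7 of 8 laser-captured oocytes of the proestrus mouse lay below all GCs of their data set, but 0 of 18 by SMART-Seq v4 did.

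**Figure D2:**
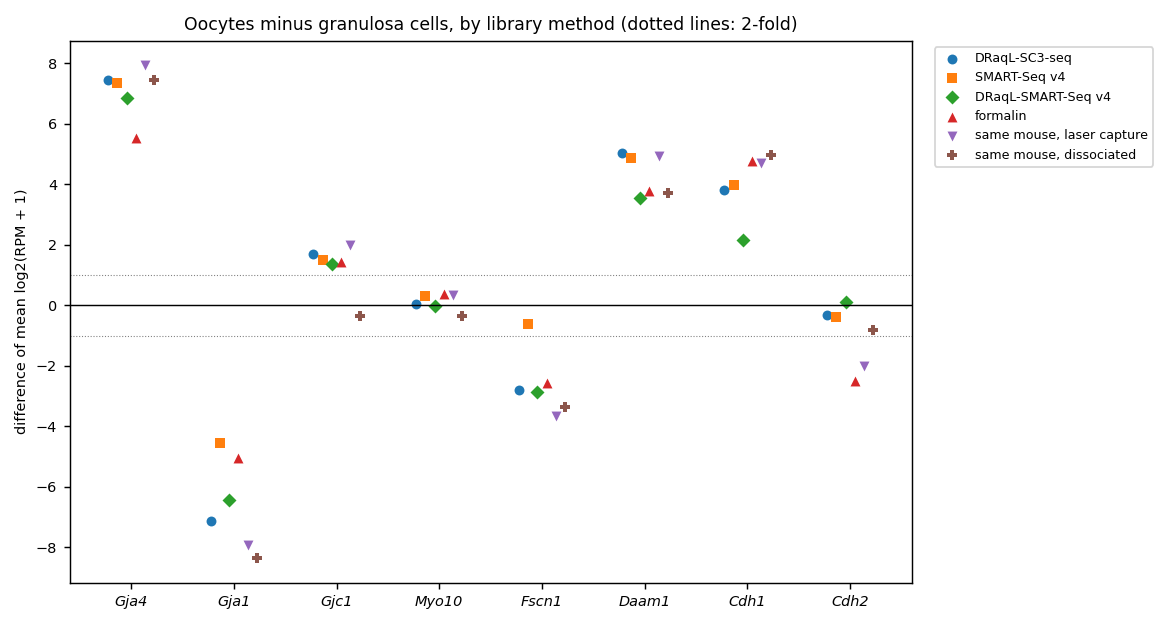
Difference of mean log2 (RPM+1), oocytes minus GCs, on the y axis for each of the 8 genes on the x axis, with 1 point per data set and dotted lines at 2-fold. Gja4, Daam1 and Cdh1 lie above 0 and Gja1 and Fscn1 below 0 in all 6 data sets, while Myo10 lies within 0.36 of 0.

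Genes that work with these were read beside them. Of 20 other connexins and pannexins, 5 were measured between oocytes and GCs by DRaqL-SC3-seq and 4 were at least 2-fold higher in oocytes. Panx1, which forms membrane channels rather than gap junctions, was higher by 2.09. Of 5 measured proteins that bind connexins, 3 were higher in oocytes, among them the scaffold proteins Dlg1 (2.46) and Tjp1 (1.42), and Nedd4, a ubiquitin ligase, was lower (-2.11). Of 20 genes of filopodia and actin, 14 were higher and 1 was lower. Baiap2, which bends membranes, was higher by 3.59, the formin gene Diap1 by 3.25, the Arp2/3 subunit genes Actr3 and Actr2 by 3.15 and 3.04, and Rdx, which ties actin to the membrane, by 2.78. Of 11 adherens junction genes, 8 were higher and 2 lower. Jup (plakoglobin) was higher by 5.32, Pvrl3 (nectin) by 4.23, and the catenin genes Ctnna1 and Ctnnb1 by 2.36 and 1.66, whereas the cadherin gene Cdh11 was lower (-1.34). The median differences of the 4 lists, 1.67, 1.42, 2.05 and 2.08, lie near the 1.89 of all genes.

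Growth of the oocyte was compared between secondary to early antral and primary follicles. Cdh1 was higher in the later stage by 3.12 and Gja4 by 2.00 on the log2 (RPM+1) scale, and Fscn1 was higher by 1.50. The other 5 genes differed by 0.05 (Gjc1) to 0.53 (Cdh2). All 30 oocytes of the later stage had more Gja4 than any of the 14 oocytes of primary follicles, and 11 of the 30 had more Cdh1. Cdh1 ran from 1.35 to 132 RPM with a median of 8.12 RPM in primary follicles, and from 17.9 to 249 RPM with a median of 104.1 RPM in the later stage. Of the 8 genes, 3 were at least 2-fold higher and none was 2-fold lower, against 32% higher and 14.9% lower of 13686 genes compared. Higher genes made up 68.2% of those past 2-fold in RPM and 57.9% after TMM scaling, which moved the median difference of all genes by -0.22. The 8 genes had a median difference of 0.40 and all genes one of 0.33.

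Gja4 and Cdh1 differed between stages in the same direction in the other 3 data sets. By SMART-Seq v4, Gja4 was higher by 2.36, with 323 to 1004 RPM in 11 oocytes of the later stage above 60.96 to 203 RPM in 7 of primary follicles. By DRaqL-SMART-Seq v4 it was higher by 2.94, with 715 to 1513 RPM in 9 oocytes above 41.7 to 311 RPM in 6. After formalin it was higher by 2.41, with 68.8 to 535 RPM in 7 oocytes against 24.0 to 151 RPM in 5, and 1 oocyte of the later stage lay within the range of the earlier one. Cdh1 was higher by 2.54, 4.53 and 3.94 in these data sets, with 9 of 11, 9 of 9 and 7 of 7 oocytes of the later stage above all of the earlier. Fscn1 was higher by 0.80, 0.75 and 0.66, under 2-fold in each. Myo10 differed by 0.03 and 0.61 without formalin and by -1.17 after it, and Cdh2 by -0.06, 1.80 and -2.64, so that their direction was not shared.

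Counts of related genes stand beside 32% higher and 14.9% lower among all genes tested. Of 20 filopodia and actin genes, 4 were at least 2-fold higher in the later stage, among them Actn1 (2.90), which crosslinks actin, Actr2 (2.28) and Rdx (2.15). Another 4 were lower, namely Ezr (-1.84), the formin gene Diap2 (-1.76), Evl (-1.66), which extends actin at leading edges, and Flna (-1.65), a crosslinker. Of 11 adherens junction genes, 3 were higher, namely Cdh3 (3.34), Pvrl3 (2.62) and Ctnna1 (1.72), and 3 were lower, among them Cdh11 (-2.65) and Jup (-2.11). Of the connexin partners, 1 of 5 was higher and 1 was lower, and of the other connexins 1 of 6 was higher. Markers differed with the stage too, with 13 of 14 oocyte genes higher, a list that overlaps the paper's growth genes of these oocytes. Of 8 GC genes 4 were higher, among them Serpine2 (1.87), Nr5a2 (1.84) and Esr2 (1.69), and 3 were lower, namely Amhr2 (-2.16), Inha (-2.04) and Foxl2 (-2.03). Their part in these values was not tested.

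Serial sections show how far the level in 1 section of an oocyte represents the cell. Gja4 ran from 1139 to 1680 RPM in the 16 sections of 8 oocytes, and the sections of an oocyte differed by a median of 0.09 and at most 0.32 on the log2 (RPM+1) scale. The median difference between sections was 0.30 for Myo10, 0.33 for Daam1 and 0.37 for Cdh1. It was 0.70 for Cdh2, 0.93 for Gja1, 1.28 for Fscn1 and 1.38 for Gjc1, which lay at lower levels. The SD between oocytes exceeded that between the sections of an oocyte for Gja4 (0.17 against 0.12), Daam1 (0.41 against 0.37), Cdh1 (0.47 against 0.37), Cdh2 (1.11 against 0.67) and Gjc1 (1.33 against 1.00), and not for Gja1, Myo10 or Fscn1.

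The position contrast asks whether GCs next to an oocyte differ in expression from those further away. Of the 7 genes measured in single GCs by DRaqL-SC3-seq, Gja4 was higher in neighboring cells by 1.28 on the log2 (RPM+1) scale, and none of the others reached 2-fold. Gja1 differed by -0.31, Myo10 by -0.51, Fscn1 by 0.43, Daam1 by -0.87, Cdh1 by 0.07 and Cdh2 by -0.88. For each gene the difference was smaller than the SD over cells. Of all 10460 genes compared, 5.33% were at least 2-fold higher and 14.1% at least 2-fold lower, with a median difference of -0.22 against -0.31 for these genes.

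The Gja4 levels of GCs went with the oocyte genes. Beside it, 13 of the 14 oocyte genes, a list that overlaps the paper's own results on these cells, were at least 2-fold higher in neighboring cells. Across the 57 GCs, which share a protocol, the Pearson correlation of Gja4 with the summed oocyte genes was 0.56 (Spearman 0.56). It ran from -0.24 for Cdh2 to -0.00106 for Cdh1 in the other 7 genes. Cell numbers were split into the ranges GC001 to GC069 and GC073 to GC100, between which the sample index in the labels steps back. The labels do not say whether these ranges are batches. The correlation was 0.38 in 42 cells of the former range and 0.70 in 15 cells of the latter. In the latter range Daam1 (0.41) and Cdh1 (0.32) were positive as well. In GC001 to GC069, Gja4 reads were found in 8 of 22 neighboring and 6 of 20 non-neighboring cells, with means of 1.33 ± 2.41 (SD, n = 22) and 0.85 ± 1.99 (SD, n = 20). In GC073 to GC100, they were found in all 9 neighboring and all 6 non-neighboring cells, with means of 5.82 ± 3.14 (SD, n = 9) and 3.00 ± 0.85 (SD, n = 6). The difference by position was thus 0.47 in the former range and 2.82 in the latter.

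Gja4 did not follow the oocyte genes at a fixed ratio in each cell. Of 16 GCs with at least 10% of the median oocyte's level of the 14 oocyte genes, 3 neighboring cells had no Gja4 read. At the ratio seen in oocytes, these would have held 223 to 430 RPM. Such values assume that a GC holds the 14 genes in the mix of an oocyte, which was not tested. Obox1 alone made up 54.9% and 45.7% of the sum in 2 of these 3 cells, and Bcl2l10 made up 20.96% in the other. Of the 7 neighboring cells of GC073 to GC100 among the 16, 4 held 229 to 512 RPM of Gja4, against 223 to 446 RPM at the oocytes' ratio. In the cell with 512 RPM, H1foo made up 57.4% of the sum. The other 3 held 1.83, 23.3 and 191 RPM against 118, 147 and 575 RPM. Non-neighboring cells were among the 16 too, with 408 RPM in 1 of GC001 to GC069 against 477 RPM at the oocytes' ratio, and 9.11 and 9.59 RPM in the other 2 against 233 and 121 RPM. The remaining 3 neighboring cells, of GC001 to GC069, held 1.89, 3.48 and 13.97 RPM against 171, 116.1 and 111.3 RPM. Without the 12 libraries at the level of an oocyte, Gja4 was higher in neighboring cells by 0.65, under 2-fold, and Daam1 was lower (-1.47), past 2-fold. Cdh1 then differed by -0.07, and the other genes kept their direction. With the 3 GCs of the separate table, which held 248, 85.3 and 81.5 RPM, the Gja4 difference was 1.09. Their part in the result was not tested.

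**Figure D3:**
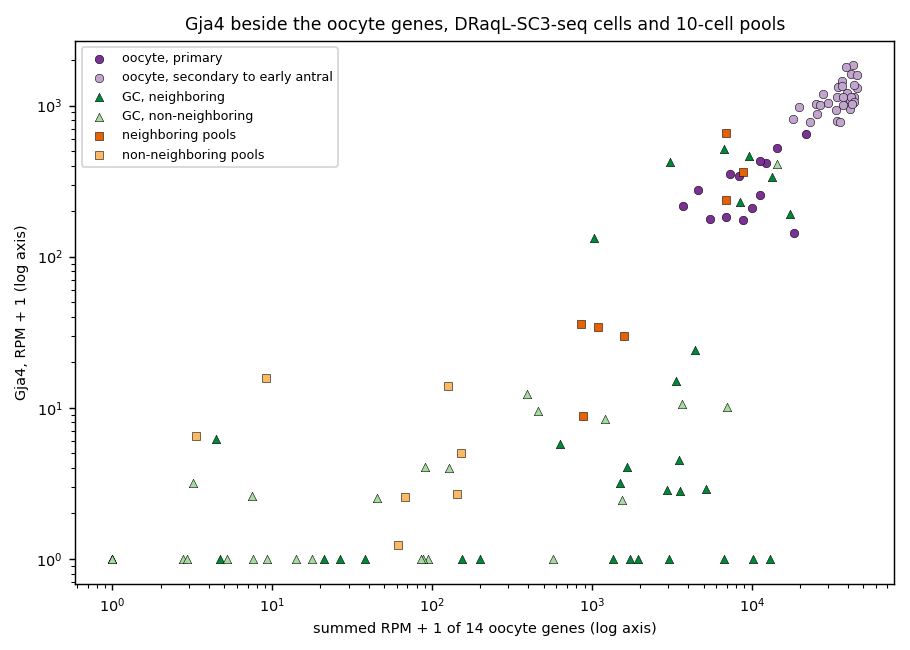
Gja4 on the y axis, as RPM + 1 on a log axis, against the summed RPM + 1 of 14 oocyte genes on the x axis, also a log axis, in DRaqL-SC3-seq oocytes, GCs and pools of 10 GCs (1 point per library). Oocytes lie at the upper right, 3 neighboring pools and some GCs reach the range of the primary oocytes, and 3 neighboring GCs with 6716 to 12938 RPM of oocyte genes lie at 0 RPM of Gja4.

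In the other protocols Gja4 was higher in neighboring GCs in each of 7 data sets, by 0.70 (SMART-Seq v4), 2.46 (DRaqL-SMART-Seq v4), 4.21 (LCM-seq), 1.94 (DRaqL-Smart-seq2), 2.53 (formalin), and 0.81 and 1.64 (proestrus mouse, laser-captured and dissociated). In LCM-seq, reads were found in 12 of 17 neighboring GCs, at up to 205 RPM, and in 2 of 20 non-neighboring ones, at up to 2.87 RPM. The summed oocyte genes had medians of 1545 and 29.8 RPM in these groups. Without the GCs at the level of an oocyte, the difference was -0.71 by SMART-Seq v4, so that the direction turned, 2.02 by DRaqL-SMART-Seq v4, 1.35 after formalin and 0.83 in the laser-captured cells of the proestrus mouse.

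The remaining genes had no shared direction with position across the 8 data sets, except for Cdh1 when all libraries were kept. Cdh1 was then higher in neighboring GCs in all 8, by 0.07 to 1.58, and by at least 2-fold in LCM-seq and DRaqL-Smart-seq2. Without the GCs at the level of an oocyte, its direction turned in DRaqL-SC3-seq (-0.07) and after formalin (-0.05), and it was higher by 0.22 to 0.80 in the other 3 data sets that held such GCs. Myo10 was higher by 0.09 to 1.33 in 6 and lower in DRaqL-SC3-seq (-0.51) and in the dissociated cells (-0.79). Gja1 differed by -1.12 to 0.42, Fscn1 by -2.89 to 0.43, Daam1 by -1.72 to 1.11, Cdh2 by -2.37 to 1.29 and Gjc1 by -1.24 to 1.07. The lowest values for Gja1, Fscn1 and Cdh2 were those of the dissociated cells. Without the GCs at the level of an oocyte, the direction also turned for Gja1 after formalin (-0.17) and for Cdh2 by SMART-Seq v4 (0.35) and after formalin (0.34), and Daam1 was higher by 2.05 after formalin.

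Cells of the proestrus mouse were amplified separately and then joined in library pools, some of which also held an oocyte. Among dissociated non-neighboring GCs, Gja4 reads were found in 9 of 14 cells from library pools with an oocyte and in 0 of 7 cells from those without. The corresponding counts were 4 of 6 and 3 of 8 in dissociated neighboring cells. In laser-captured cells they were 5 of 10 and 9 of 25 (neighboring) and 5 of 12 and 9 of 23 (non-neighboring). The counts were small, and the part of library pools in the Gja4 reads was not tested.

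Among the related lists, to be read against the 5.33% higher and 14.1% lower of all genes, no filopodia or actin gene was 2-fold higher in neighboring GCs by DRaqL-SC3-seq and 4 of 20 were lower, among them Enah (-2.07), which extends filopodia, Flna (-2.05) and Evl (-1.25). Of 8 adherens junction genes, Ctnnb1 (β-catenin) was higher by 1.65, and Ctnnd1 (-1.56), Pvrl1 (-1.43) and Ctnna1 (-1.10) were lower. Of 5 connexin partners, Tjp1 (ZO-1) was lower (-2.53). Hsd3b1, a steroidogenic enzyme taken as a marker of theca and interstitial cells, was lower in neighboring GCs (-3.09), and the summed level of 5 such markers had medians of 1.74 RPM in neighboring and 85.7 RPM in non-neighboring cells. The part of such cells in these values was not tested.

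**Figure D4:**
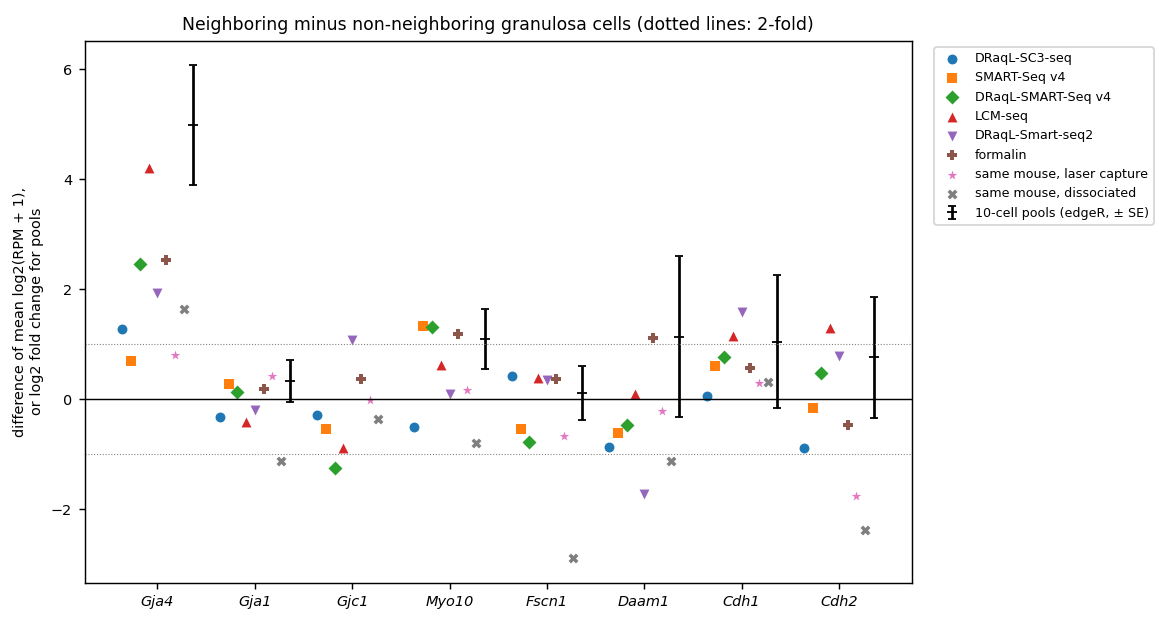
Neighboring minus non-neighboring GCs on the y axis for each of the 8 genes on the x axis, as the difference of mean log2 (RPM+1) for 8 data sets of single cells and as the edgeR log2 fold change ± SE for the pools of 10 cells, with dotted lines at 2-fold. Gja4 lies above 0 in all of them and furthest up in the pools, at 4.99 ± 1.08.

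Pools of 10 GCs were the libraries by position that could be tested, since they are separate samples. Their animals are not named, so p-values measure the spread between pools. Gja4 was 33.02, 28.9, 7.83, 662, 363, 235 and 35.03 RPM in neighboring pools 1 to 7 and 1.68, 4.00, 14.8, 0.242, 13.02, 1.57 and 5.47 RPM in non-neighboring pools 1 to 7. Of the neighboring pools 6 lay above all non-neighboring pools, and pool 3 was within their range. Gja4 rose in neighboring pools with a log2 fold change of 4.99 ± 1.08 (SE) and an adjusted p of 0.0420 (edgeR quasi-likelihood F-test with Benjamini-Hochberg adjustment over 9704 genes). Altogether 44 genes, or 0.453%, were called, all of them higher in neighboring pools, and 402 had an unadjusted p under 0.05. Gja4 was the single one of 7 genes tested that was called, while Gjc1 was too low to be tested. Leaving out a pool number takes out both the neighboring and the non-neighboring pool of that number. The call for Gja4 was lost when pool number 1, 2, 4, 5, 6 or 7 was left out, with adjusted p of 0.0686, 0.0752, 0.277, 0.229, 0.176 and 0.0907 and log2 fold changes of 3.98 to 5.15. It was also lost with the pool number as a block in edgeR (log2 fold change 4.11, adjusted p 0.488), although the numbers share no stated origin. The call held without number 3 (adjusted p 0.0439), with RLE scaling (0.0374), without a filter on low counts (0.0256) and in DESeq2 (2.6e-05).

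The oocyte genes stood beside Gja4 in the pools too. Their summed level was 856 to 8865 RPM in neighboring and 2.34 to 151 RPM in non-neighboring pools, without overlap, and 9 of the 14 were called. The neighboring pools 4, 5 and 6, which were highest in Gja4, were also highest in oocyte genes, with 6924, 8865 and 6923 RPM. Gja4 is not among the 14 genes, and its level was set against theirs as a ratio. The ratio was 0.895% to 9.56% in neighboring pools, with a median of 3.39%. It was 0.405% to 233% in non-neighboring pools, with a median of 2.65%, and 1.40% to 21.1% in bulk GCs, with a median of 5.08%. The 233% was that of non-neighboring pool 7, which held 2.34 RPM of the oocyte genes. In DRaqL-SC3-seq oocytes of secondary to early antral follicles it was 2.18% to 4.92%, with a median of 3.32%. In the serial sections of oocytes it was 2.02% to 3.46%, with a median of 2.53%. A pool cannot tell fewer cells of a type from less RNA per cell.

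The other genes were not called between the pools. Myo10 was 76.7, 223, 96.6, 212, 260, 480 and 201 RPM in neighboring pools 1 to 7 and 41.3, 19.4, 39.4, 132, 139, 206 and 103.9 RPM in non-neighboring pools 1 to 7. Of the neighboring pools 4 lay above all non-neighboring pools, the groups overlapped, and the log2 fold change was 1.09 ± 0.55 (SE), with an adjusted p of 0.998 by edgeR. Gja1 ran from 241 to 459 RPM in neighboring and from 123 to 441 RPM in non-neighboring pools, with a log2 fold change of 0.33 ± 0.38 (SE). Fscn1 differed by 0.12 ± 0.49 (SE), Daam1 by 1.14 ± 1.47, Cdh1 by 1.05 ± 1.21 and Cdh2 by 0.76 ± 1.09, all with an adjusted p of 0.998. The errors of these last 3 exceed their fold changes. Cdh1 was 123 RPM in neighboring pool 5 and at most 11.3 RPM in the other neighboring pools, and without number 5 its fold change was -1.09. None of the related lists had a gene that was called between the pools, over 20 filopodia and actin genes, 10 adherens junction genes, 5 connexin partners and 1 other connexin. Theca and interstitial markers had a median of 918 RPM in non-neighboring pools (41.3 to 5299) and of 0.275 RPM in neighboring pools (0 to 2035).

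**Figure D5:**
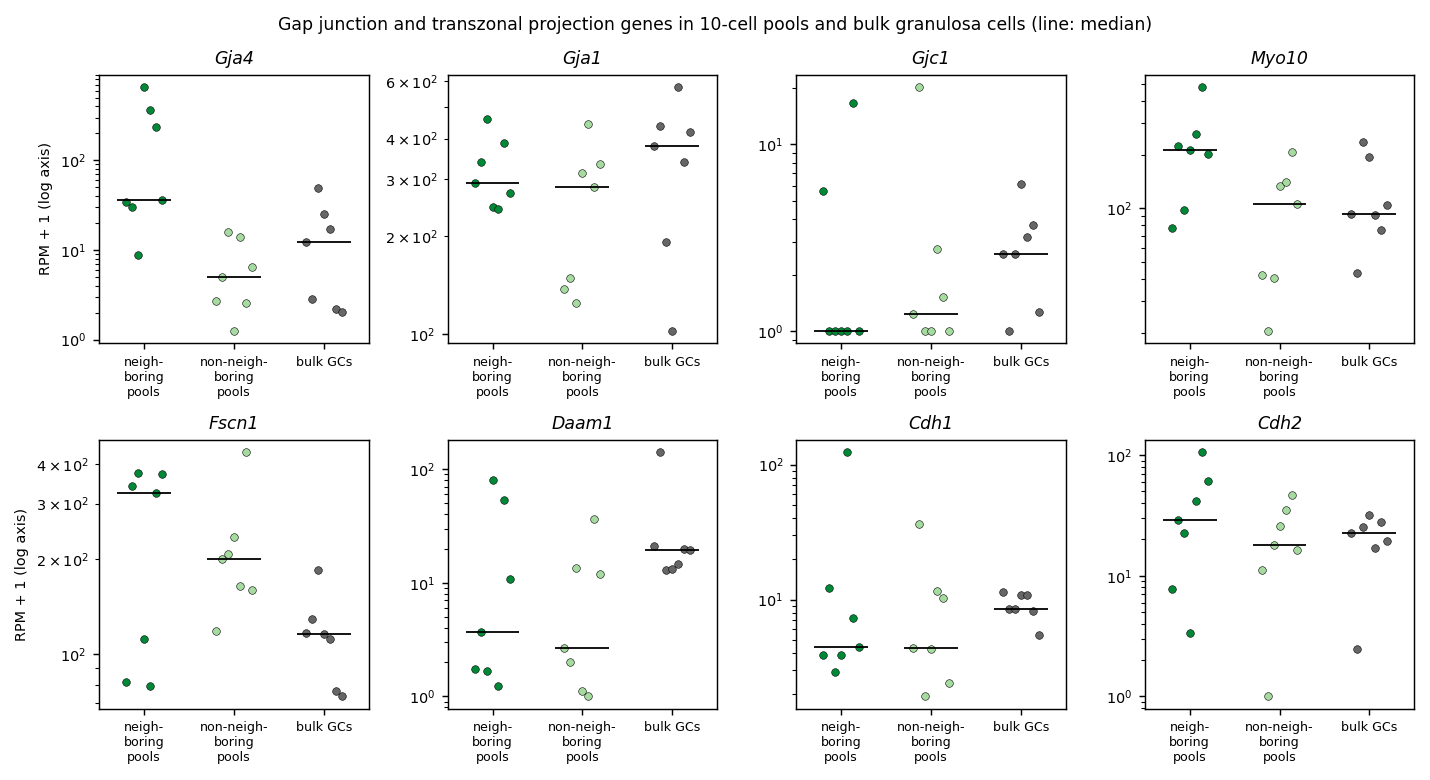
Level of each of the 8 genes on the y axis, as RPM + 1 on a log axis that differs between panels, in 7 neighboring pools, 7 non-neighboring pools and 7 bulk samples (points, with a line at the median). In the Gja4 panel 6 of the neighboring pools lie above all non-neighboring pools, and the other panels overlap.

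Bulk GCs were compared with the pools to see whether chosen cells resemble the tissue. The paper took the pools from early antral follicles. It took some bulk samples from early antral follicles after removing the oocyte, and others from follicles of unidentified stage without an oocyte in the section. The summed oocyte genes ran from 4.97 to 1713 RPM in the bulk samples, and the part of stage was not tested. Between 7 bulk samples and the mean of the pool groups, 12 of 11917 genes (0.101%) were called by edgeR and none of the 8 genes was, while 743 genes had an unadjusted p under 0.05. DESeq2 called 350 genes in all and none of the 8. Fscn1 came closest, with 72.4 to 184 RPM in bulk against 78.2 to 375 RPM in neighboring and 117 to 436 RPM in non-neighboring pools, a log2 fold change of -1.02 ± 0.40 (SE) and an adjusted p of 0.556. Gja4 was 11.2, 1.86, 48.0, 24.0, 15.9, 1.21 and 1.05 RPM in the bulk samples 1 to 6 and 8. Gja1 was 101.2 to 577 RPM. Sample 2 stood apart, with 141 RPM of Daam1 and 1.45 RPM of Cdh2 against 12.0 to 20.1 and 16.1 to 31.1 RPM in the other 6. Without it, the Daam1 log2 fold change was 0.21 rather than 1.31.

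In the proestrus mouse, cells cut from sections and dissociated cells were set side by side. Lysis differed, and the dissociated cells had been held in medium with a cAMP analog. The laser-captured oocytes were grouped as secondary to early antral and the dissociated ones as grown. These differences between the groups cannot be told apart here. Myo10 stood out. It was 97.2 to 944 RPM with a median of 607 RPM in 8 laser-captured oocytes and 31.6 to 80.8 RPM with a median of 55.4 RPM in 14 dissociated ones, with no overlap and a difference of 3.06 on the log2 (RPM+1) scale. In GCs its median was 487 RPM after laser capture and 123 RPM after dissociation, a difference of 2.36, and 45 of 70 laser-captured cells lay above all 35 dissociated ones. Markers differed between these groups too. In laser-captured oocytes 7 of 14 oocyte genes were lower and 4 of 9 GC genes higher. In laser-captured GCs 3 of 10 GC genes were higher and 2 lower, namely Inhbb (-4.68) and Inha (-2.48), while Hsd3b1 (-5.60) and both blood genes measured were lower. Their part in the Myo10 values was not tested. In mESCs by DRaqL-SC3-seq, the difference of laser-captured from freshly dissociated cells was -0.80.

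Daam1 was 267 to 646 RPM in the 8 laser-captured oocytes, above the 67.7 to 205 RPM of the 14 dissociated ones, with a difference of 1.58. Gjc1 was higher in laser-captured oocytes by 2.00, with medians of 5.40 and 0 RPM. Gja1 was lower in laser-captured GCs (-1.03) and in laser-captured mESCs (-1.12). Gja4 differed by -0.26 in oocytes, with medians of 936 and 916 RPM, and Cdh1 by 0.01. At least 2-fold differences were thus found for 1 gene higher and 1 lower of 7 in GCs, where 22.6% of genes were higher and 27.6% lower. They were found for 3 higher of 8 in oocytes, against 21.5% higher and 19% lower, and for 1 lower of 7 in mESCs, against 0.793% higher and 9.17% lower. In GCs, 6 of 18 filopodia and actin genes were higher after laser capture, among them the formin genes Diap3 (4.08) and Diap2 (2.81), Enah (2.04) and Evl (1.93), and 4 were lower, among them Rac1 (-1.62). The connexin partners Dlg1 (3.23) and Tjp1 (1.82) were higher as well. In oocytes, Baiap2 (2.14), Diap1 (1.52), Diap3 (1.25) and Actn1 (1.01) were among 6 higher genes of the 20 measured in that list, and 1 was lower.

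Libraries with Y-shaped adapters gave reads per exon in 5 oocytes of secondary to early antral follicles, with 6462959 to 7865860 reads on exons, and in 10 mESCs, 5 fresh and 5 laser-captured, with 6200968 to 16296631. For each gene the transcript with the most reads was used, and overlapping exons of other transcripts can share reads. In oocytes, Gja4 had 31723 reads in its second and last exon (chr4:127311421-127312985), with 3852 to 7988 per oocyte, and 25 in exon 1. In mESCs, the last exon had 159 reads. Gja1 had 48 reads in oocytes and 523 in mESCs, all in exon 2. Gjc1 had 259 and 3437 reads in its last exon, with 222 of the 259 in 1 oocyte. Cdh1 had 1659 and 11853 reads in its last exon and Fscn1 165 and 5289. Daam1 had 910 reads in its last exon in oocytes and 78 in mESCs, and 18 of its 26 exons had reads in oocytes against 2 in mESCs.

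Myo10 differed in where its reads lay. The last exon, 41 (chr15:25812121-25813673), had 1708 reads in oocytes, with 241 to 447 in each of the 5, and 2356 in mESCs, with 10 to 525 in each of the 10. Exons 15 to 23 (chr15:25737450-25779810) had 471 reads in oocytes, with 14 to 252 and a median of 79 in each, and 0 in the 10 mESCs. Exon 23 alone had 156. Exons 1 to 14 had 15 reads in oocytes and 0 in mESCs, and exons 24 to 40 had 8 in oocytes and 27 in mESCs, the latter all in 1 cell. Exons 15 to 23 were picked once the reads per exon were known, so their contrast carries no test. Reads over junctions numbered 147 for Myo10 over 8 junctions in oocytes and 18 over 1 junction in mESCs, where all 10 cells shared it. Oocytes also had junction reads of Daam1 (55 over 7), Gja4 (48 over 7) and Cdh1 (10 over 3), and mESCs had 11 of Fscn1 over 1. Junctions were taken by gene, as deposited, and not by the transcript used for exons. They do not match its exons throughout. Gja4 has 2 exons there, with 25 oocyte reads in exon 1, too few exons for 7 junctions. The Myo10 junction had reads in all 10 mESCs, whereas reads outside the last exon lay in 1 mESC. The source of these junctions was not tested.

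The genes whose levels were most alike across the 44 oocytes and 57 GCs of DRaqL-SC3-seq were, for Gja4, Zfp57 (Pearson's r 0.93), Fbxw21 (0.92) and Astl (0.92). For Gja1 they were Inha (0.91), which encodes the inhibin alpha subunit of GCs, Scd2 (0.91) and Apoa4 (0.87). Daam1 was most alike to Tpmt (0.84) and Cdh1 to Erich5 (0.79). Gjc1 was most alike to Aspg (0.68) and Cdh2 to Gata4 (0.46). These points share the protocol, and the oocyte libraries had the higher median depth. Within the 44 oocytes Gja4 was most alike to Cpa1 (0.94) and Cdh1 to Acbd3 (0.90), and Gja4 and Cdh1 correlated with each other at 0.71 over both stages and at 0.09 within the 30 oocytes of secondary to early antral follicles.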

How the data were processed

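The authors trimmed reads with cutadapt and fastp, aligned them to GRCm38 with HISAT2 2.1.0 and deposited raw read counts per gene from HTSeq 0.10.0, which took in reads within 10 kb of annotated 3′ ends. Exon and junction counts, as deposited, came from featureCounts 2.0.1. Reads near a 3′ end that several genes share cannot be told apart.

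From the counts, RPM over 22060 protein-coding genes was computed per library, and levels were compared as log2 (RPM+1) (Python 3.11.15, pandas 2.3.3). A gene entered a single-cell comparison when the mean of its log2 level reached 1 in either group, and differences of 2-fold were counted without a test. Pools and bulk samples were tested with the quasi-likelihood F-test of edgeR 4.0.16 in R 4.3.3, with TMM scaling, filterByExpr and Benjamini-Hochberg adjustment at 0.05, and no covariate. Alternatives for these were DESeq2 1.42.0, RLE scaling, no filter and a replicate block. Each pool number, with both of its pools, and each bulk sample was also left out in turn. Alternatives for single cells were pseudocounts of 0.1 and 10, a ratio of means, TMM-scaled CPM, thinning to 162033 reads, and leaving out GCs with oocyte RNA. The fits and summaries were tested on simulated data.

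The 8 genes were all named. Of each related list, at most 5 genes past 2-fold (or called) per comparison and direction were eligible, among those with a mean log2 level of 4 in either group. The genes and lists were chosen with earlier results of these data known. A few genes that the rule would name are not reported here.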

Additional observations from a re-analysis of the deposited data

Results flagged for a closer look

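A library was singled out when it lay far beyond the nearest of its group, in groups of 4 to 10 samples (Dixon's test at 95%). Of 72 checks (8 genes in 9 groups) 11 met this. The nominal rate of the test, 1 in 20, holds for normal values, and the share over all genes was not computed. Several of the 11 also come from the same library, so their number is not compared with chance. All levels here are log2 (RPM+1).

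Bulk sample 2 was highest in Daam1, at 7.15 against 4.40 for the next sample, and lowest in Cdh2, at 1.29 against 4.09. Neighboring pool 5 was highest in Cdh1, at 6.95 against 3.62. Non-neighboring pool 2 was highest in Gjc1, at 4.35 against 1.46, and lowest in Cdh2, at 0 against 3.47.

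In 1 oocyte after formalin, oocyte 3 of the secondary to early antral follicles, 3 genes stood apart. Gja4 was lowest, at 6.13 against 8.44, and so was Daam1, at 3.53 against 6.85, while Cdh1 was highest, at 9.75 against 8.47. Laser-captured oocyte 8 of the proestrus mouse was lowest in Gja4, at 7.75 against 9.26. By DRaqL-SMART-Seq v4, oocyte 2 of the secondary to early antral follicles was lowest in Cdh1, at 5.42 against 6.88. By SMART-Seq v4, primary oocyte 7 was lowest in Fscn1, at 1.14 against 3.88.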

How the results depend on the processing

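Of the 8 genes, 1 was called between the pools. The replicate numbers of the pools share no stated origin: deviations of same-numbered pools correlated at 0.00593 to 0.188, over 0.1 in 2 of 7 numbers, and 3 of 7 neighboring pools correlated best with their own number. With the replicate block, 0 of the genes were called, Gja4 had a log2 fold change of 4.11 (adjusted p 0.488, edgeR) and 3 genes were called in all. Leaving out 1 number at a time left 0 to 1 of the genes and 5 to 34 genes in all, against 44, and DESeq2 called 409. For the bulk comparison, leaving out 1 sample gave 0 to 57 genes against 12, no filter 463, DESeq2 350. None of these calls was among the 8 genes in the bulk comparison by edgeR or DESeq2.

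Directions of uncalled genes between pools turned. Fscn1 was -0.14 with the block and -0.20 to 0.35 without 1 number. Gja1 ran from -0.0482 to 0.55, Daam1 from -0.0292 to 1.48 and Cdh1 from -1.09 to 2.16 without 1 number, and Cdh1 was -1.08 in DESeq2. In the bulk comparison Cdh1 was 0.23 in DESeq2. The cause was not tested.

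The count of genes past 2-fold by position in single GCs, 1 in the values above, was 2 with a pseudocount of 0.1, 0 with 10, 3 by the ratio of means, 2 with the 3 separate GCs, 2 within GC001 to GC069 and 4 within GC073 to GC100. For laser-captured against dissociated cells, it was 4 rather than 2 in GCs by the ratio of means and 5 rather than 3 in oocytes with a pseudocount of 0.1. In mESCs it was 0 rather than 1 with a pseudocount of 10 and 2 by the ratio of means. The counts between oocytes and GCs and between stages stayed within 1.5 times. Leaving out GC libraries at the level of an oocyte was chosen after seeing the data.

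Depth limits the low genes, since GC libraries of DRaqL-SC3-seq held as few as 162033 reads. Animals are not named, so the spread between mice is unknown, and single cells carry no test.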
